A study of Mus musculus with 12 samples.

Results

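A set of 10 genes of branched-chain amino acid breakdown was followed through muscle libraries of diabetic mice: Bcat2, Bckdha, Bckdhb, Dbt, Bckdk, Ivd, Mccc1, Hibch, Hibadh and Aldh6a1. They were taken by gene symbol from the deposited expression table, without regard to their values, and make up 10 of its 22390 features. The mice were male db/db animals on the C57BL/KsJ background. They carry a defective leptin receptor, and all 4 groups, the control included, are therefore obese and diabetic, with no lean group for comparison. The mice entered the groups at 8 weeks of age and were followed for 8 weeks, with 3 libraries per group and 12 in all.

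The control group was reared without intervention. The HIIT group ran high-intensity intervals on a treadmill, in 10 bouts that lasted 4 min each, at a speed of 85 to 90% of the maximum, with 2 min of recovery and 5 days a week. The semaglutide group was injected subcutaneously with semaglutide, a drug of long action at the GLP-1 receptor, at a dose the sample titles give as 0.05 mg/kg and the protocol as 30 nmol/kg daily. The combination group had both, and no injection is named for the control and HIIT groups. The labels call the tissue muscle and the protocol lists soleus, a muscle rich in slow fibres, among the tissues taken. The fast myosin Myh4 lay between 4669 and 8898 FPKM and the slow myosin Myh7 between 5.27 and 108 FPKM in these libraries, so the values are those of fast-fibre tissue. FPKM counts the fragments of a transcript per kilobase of its length and per sequencing depth, so it can be set side by side between genes.

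Leucine, isoleucine and valine are broken down by a shared start followed by separate branches, all in the mitochondria. An aminotransferase first removes the amino group, and the branched-chain 2-oxoacid dehydrogenase complex (BCKDH) then makes the first irreversible step, to a coenzyme A ester. The kinase Bckdk switches this complex off by phosphorylating its E1 alpha subunit, and the phosphatase Ppm1k switches it on. Muscle is known for abundant aminotransferase, which lets it begin the breakdown, and raised blood levels of these amino acids are a known trait of obesity and type 2 diabetes.

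The 10 genes were expressed in every library, and no gene's highest library was more than 1.70-fold above its lowest. Bckdha, the E1 alpha subunit, was higher in the injected animals when both exercise states were averaged, and it was the only one of the 10 that passed the test in any comparison. Of all genes 16.8% passed in that comparison, so 1 of 10 is near the background, and the call was lost in 19 of 24 alternative fits. In the combination group Bcat2, Bckdha, Dbt, Bckdk, Ivd and Hibadh had their highest group means, and in the semaglutide group Bcat2, Bckdhb, Ivd, Mccc1 and Hibadh had their lowest, but no pairwise difference of the 10 genes passed. Hibadh and Bckdha were the most abundant, at 64.2 ± 5.999 and 60.6 ± 6.99 FPKM (mean ± SD, n = 12 libraries), followed by Aldh6a1 at 51.4, Bckdk at 35.7, Ivd at 26.7, Hibch at 23.1, Bcat2 at 22.1, Mccc1 at 11.6, Bckdhb at 11.5 and Dbt at 6.69 FPKM. Neighbours in this order that lay closer than the larger of their 2 SDs were Hibadh and Bckdha, Ivd and Hibch, Hibch and Bcat2, and Mccc1 and Bckdhb.

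All 10 genes passed the filter on low values (at least 1 FPKM in at least 3 libraries) and lay above 1 FPKM in every library. Their coefficient of variation over the 12 libraries ran from 8.19% for Bckdk to 17.9% for Dbt, and the ratio of the highest to the lowest library from 1.34-fold for Bckdk to 1.70-fold for Dbt. Combination 3 was the highest library for 5 of the 10 genes and control 2 the lowest for 4. The 10 values summed to 318 to 366 FPKM in the combination libraries and to 291 to 331 FPKM in the control libraries.

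**Figure D1:**
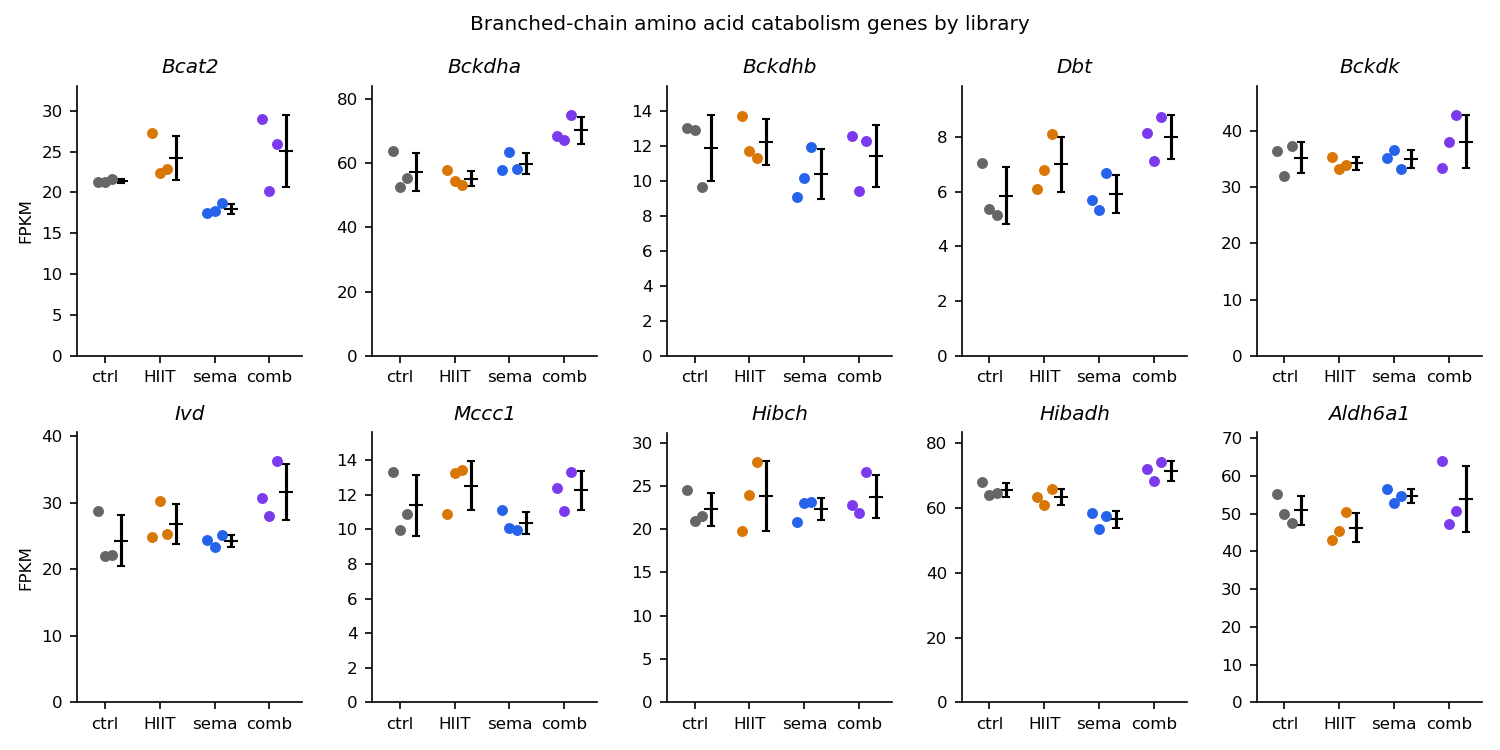
FPKM of the 10 genes in each library (points), by group (ctrl control, sema semaglutide, comb combination), with the group mean and SD (bars, n = 3) on linear axes that start at 0. The 3 combination points of Bckdha (67.2 to 74.95 FPKM) and of Hibadh (68.2 to 74.1 FPKM) lie above the points of the other groups. The 3 semaglutide points of Bcat2 (17.5 to 18.7 FPKM) and of Hibadh (53.5 to 58.5 FPKM) lie below those of the other groups. The share of all genes set apart from all other groups was not counted.

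Bcat2 encodes the mitochondrial branched-chain aminotransferase, the entry to the pathway. It stood at 21.2, 21.2 and 21.7 FPKM in the control libraries, 27.3, 22.4 and 22.9 in HIIT, 17.5, 17.7 and 18.7 in semaglutide and 29.0, 20.2 and 26.0 in the combination. The 3 semaglutide libraries were below the other 9. The HIIT libraries were all above the control libraries, and the combination libraries spread widely, with combination 2 under every control. The cytosolic aminotransferase Bcat1 was at 0.019 to 0.24 FPKM, under the filter.

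Bckdha and Bckdhb encode the alpha and beta subunits of E1, which decarboxylates the oxoacid. Bckdha was at 63.8, 52.6 and 55.3 FPKM in control, 57.7, 54.4 and 53.2 in HIIT, 57.7, 63.5 and 58.1 in semaglutide and 68.4, 67.2 and 74.95 in the combination. Every combination library exceeded the other 9, while the other 3 groups overlapped. Bckdhb was at 13.01, 12.9 and 9.67 FPKM in control, 13.7, 11.7 and 11.3 in HIIT, 9.07, 10.1 and 11.9 in semaglutide and 12.5, 9.38 and 12.3 in the combination. All its groups overlapped. Although E1 holds both subunits in equal number, the transcript of the alpha subunit was 4.08 to 7.16 times that of the beta subunit.

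Dbt encodes E2, the transacylase that forms the core of the complex and hands the acyl group to coenzyme A. Its values were 7.05, 5.39 and 5.14 FPKM in control, 6.11, 6.79 and 8.10 in HIIT, 5.69, 5.35 and 6.69 in semaglutide and 8.14, 7.12 and 8.73 in the combination. The combination libraries lay above all control and semaglutide libraries and overlapped HIIT. Dld, the E3 subunit that BCKDH shares with the pyruvate and 2-oxoglutarate dehydrogenases, was far more abundant, with group means of 120 to 128 FPKM.

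Bckdk, the inhibitory kinase, was at 36.5, 32.1 and 37.3 FPKM in control, 35.4, 33.3 and 34.0 in HIIT, 35.1, 36.6 and 33.3 in semaglutide and 33.4, 38.0 and 42.9 in the combination. All groups overlapped. Ppm1k, the activating phosphatase, was at 2.59, 2.13 and 1.97 FPKM in control, 1.85, 1.88 and 2.16 in HIIT, 1.66, 1.83 and 1.83 in semaglutide and 1.84, 1.38 and 1.77 in the combination. The 6 libraries of injected animals lay below the 6 of animals without injection.

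Ivd, isovaleryl-CoA dehydrogenase, and Mccc1, the biotin-bearing subunit of methylcrotonyl-CoA carboxylase, act in the leucine branch. Ivd was at 28.7, 22.0 and 22.1 FPKM in control, 24.9, 30.3 and 25.2 in HIIT, 24.3, 23.3 and 25.1 in semaglutide and 30.6, 27.97 and 36.2 in the combination. The combination libraries were above all semaglutide libraries, and control 1 reached into their range. Mccc1 was at 13.3, 9.97 and 10.9 FPKM in control, 10.9, 13.3 and 13.4 in HIIT, 11.1, 10.1 and 9.97 in semaglutide and 12.4, 11.1 and 13.3 in the combination, with no group apart from another. Mccc2, the partner subunit of Mccc1, had group means of 12.2 to 13.3 FPKM.

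Hibch, Hibadh and Aldh6a1 are the hydrolase, the hydroxyisobutyrate dehydrogenase and the semialdehyde dehydrogenase of the valine branch. Hibadh was at 68.1, 64.0 and 64.5 FPKM in control, 63.5, 60.9 and 65.7 in HIIT, 58.5, 53.5 and 57.4 in semaglutide and 71.9, 68.2 and 74.1 in the combination. The semaglutide libraries were the 3 lowest of the 12 and the combination libraries the 3 highest. Of all genes 18.1% had all semaglutide libraries below all control libraries and 7.49% had all combination libraries above all HIIT libraries. Hibch was at 24.5, 20.9 and 21.6 FPKM in control, 19.7, 23.9 and 27.8 in HIIT, 20.9, 23.0 and 23.1 in semaglutide and 22.7, 21.9 and 26.6 in the combination, with all groups overlapping. Aldh6a1 was at 55.2, 49.8 and 47.6 FPKM in control, 42.9, 45.4 and 50.4 in HIIT, 56.5, 52.7 and 54.7 in semaglutide and 63.8, 47.2 and 50.7 in the combination. Its semaglutide libraries lay above the HIIT libraries, and combination 1 was the highest of the 12. Aldh6a1 overlaps the gene Bbof1, which averaged 1.68 FPKM, and how the counting treated strand is not given in the sources used here.

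Promoter sequence is shown for 4 of the 5 genes whose combination libraries all lay above the semaglutide libraries, the group of members described together below. The table used holds no entry for Dbt. Each line is the 250 bases before the annotated start (RefSeq, build GRCm38.p6, gene strand, 5′ to 3′), with the CCAAT box (CCAAT or its reverse ATTGG) and the CACCC box (CACCC or its reverse GGGTG), to which Klf factors can bind, in capitals. The windows are chr7:45569903-45570152 (plus strand) for Bcat2, chr7:25658762-25659011 (minus) for Bckdha, chr2:118861744-118861993 (plus) for Ivd and chr6:52640301-52640550 (minus) for Hibadh.
Bcat2: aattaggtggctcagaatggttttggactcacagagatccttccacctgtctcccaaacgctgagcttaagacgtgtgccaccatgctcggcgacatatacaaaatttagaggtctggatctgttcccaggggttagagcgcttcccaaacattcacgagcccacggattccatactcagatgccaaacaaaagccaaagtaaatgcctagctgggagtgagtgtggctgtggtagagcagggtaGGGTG
Bckdha: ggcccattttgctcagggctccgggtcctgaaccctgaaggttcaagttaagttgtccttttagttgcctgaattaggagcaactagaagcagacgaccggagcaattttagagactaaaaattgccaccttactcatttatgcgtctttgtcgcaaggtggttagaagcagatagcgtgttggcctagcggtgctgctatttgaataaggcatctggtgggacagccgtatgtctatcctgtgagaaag
Ivd: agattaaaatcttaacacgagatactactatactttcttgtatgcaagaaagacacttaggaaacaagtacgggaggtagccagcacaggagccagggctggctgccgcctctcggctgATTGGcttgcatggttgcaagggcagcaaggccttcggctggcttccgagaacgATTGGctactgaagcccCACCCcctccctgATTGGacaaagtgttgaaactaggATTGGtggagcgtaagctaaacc
Hibadh: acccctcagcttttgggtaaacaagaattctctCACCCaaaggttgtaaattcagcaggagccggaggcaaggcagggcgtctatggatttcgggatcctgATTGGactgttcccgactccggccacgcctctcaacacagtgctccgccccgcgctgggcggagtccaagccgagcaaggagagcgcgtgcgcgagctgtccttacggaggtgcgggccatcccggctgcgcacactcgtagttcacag
Ivd held 4 CCAAT boxes and 1 CACCC box, Hibadh 1 of each, Bcat2 1 CACCC box at the very end of the window shown, and Bckdha none. A second Bcat2 window (chr7:45571029-45571278, plus strand) held neither. The 9 genes in the table have 12 windows, of which 7 held CCAAT, against 33.8% of 32851 mouse windows of the same length, and 7 held CACCC, against 52.0%. The half-site AAGGTCA (reverse TGACCTT), to which estrogen-related receptors can bind, was in none of the 12 and in 4.08% of all windows. These are matches of letters on either strand, and no binding was measured.

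HIIT against control compared exercise alone. None of the 10 genes passed limma's test at a Benjamini-Hochberg adjusted p of 0.05, nor did any of all 10666 genes tested (0%), and none of the 10 had an unadjusted p below 0.05, against 952 genes (8.93%). Bcat2 was 24.2 ± 2.702 against 21.4 ± 0.264 FPKM (SD, n = 3 each), a log2 difference of 0.16 ± 0.12 (limma SE; adjusted p = 0.733), and was the only one of the 10 whose HIIT libraries all exceeded the control libraries, which 4.37% of all genes did. Dbt differed by 0.23 ± 0.13 on the log2 scale. Over the 10 genes, 6 differences were above 0, against 44.1% of all genes, with a median of 0.06 against -0.03 for all genes. The 95% intervals of the 10 differences all included 0, and their outer limits were -0.38 and 0.52.

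Semaglutide against control compared the drug alone, and 397 of all genes passed (3.72%) while none of the 10 did. With 1 library left out the count over all genes was 33 (without control 1 or semaglutide 1) to 552 (without HIIT 1). Hibadh was 56.5 ± 2.67 against 65.6 ± 2.26 FPKM, a log2 difference of -0.21 ± 0.07 (limma adjusted p = 0.139). Bcat2 was 17.98 ± 0.663 against 21.4 ± 0.264 FPKM, a difference of -0.24 ± 0.12 (limma adjusted p = 0.308). These were the 2 genes with all semaglutide libraries below all control libraries, a share near the 18.1% of all genes that lay apart in that way. The median of the 10 was -0.00 against -0.05 for all genes, and after rescaling the libraries by the trimmed mean of M-values (TMM) it was 0.05.

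In the combination group compared with control, 668 genes passed (6.26%), most of them lower, and again none of the 10. The count over all genes was 4 without combination 2 and 1643 without combination 1. Bckdha was 70.2 ± 4.18 against 57.2 ± 5.81 FPKM, a log2 difference of 0.29 ± 0.09 (limma adjusted p = 0.0739). Dbt differed by 0.40 ± 0.13 (limma adjusted p = 0.0978) and Ivd by 0.37 ± 0.13 (limma adjusted p = 0.0987). Bckdha, Dbt and Hibadh had all combination libraries above all control libraries, as 6.37% of all genes did. The difference was above 0 for 9 of the 10 genes, all but Bckdhb, against 29.1% of all genes, and their median was 0.11 against -0.13. The median of all genes depends on how the libraries are scaled. TMM brings it near 0 by construction (-0.01), so the cause of the negative median was not tested. With TMM the median of the 10 genes was 0.25, Bckdhb was at 0.08, and Bckdha passed, at 0.43 (limma adjusted p = 0.0413). Bckdha also passed with a score of adipocyte markers as a covariate (0.30, limma adjusted p = 0.0486). It did not pass in the other 23 of 25 alternatives.

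Combination against HIIT compared exercise with and without semaglutide, and 321 of all genes passed (3.01%) but none of the 10. The count over all genes was 18 without combination 2 and 1574 without combination 1. Bckdha was 70.2 against 55.1 ± 2.36 FPKM, a log2 difference of 0.34 ± 0.09 (limma adjusted p = 0.0602), and Hibadh differed by 0.17 ± 0.07 (limma adjusted p = 0.164). Both had all combination libraries above all HIIT libraries, which 7.49% of all genes had. Bckdha passed with TMM (0.46, limma adjusted p = 0.0373) and without combination 1 (0.36, limma adjusted p = 0.0420), and did not pass in the other 24 of 26 alternatives. The median of the 10 genes was 0.16 against -0.12 for all genes.

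Combination against semaglutide compared the drug with and without exercise, and gave 5 of the 10 genes with all combination libraries above all semaglutide libraries, against 3.91% of all genes. None of the 10 passed, and 1 of all genes did (0.00938%), a count that was 557 without combination 1. Hibadh, at 71.4 ± 2.97 against 56.5 ± 2.67 FPKM, differed by 0.33 ± 0.07 on the log2 scale (limma adjusted p = 0.280) and ranked at position 24 of 10666 by p. Bcat2 differed by 0.44 ± 0.12, Dbt by 0.38 ± 0.13, Ivd by 0.36 ± 0.13 and Bckdha by 0.23 ± 0.09 (limma adjusted p = 0.280, 0.326, 0.326 and 0.355). These 5 had an unadjusted p below 0.05 in the higher direction, against 1.78% of all genes. The difference was above 0 for 9 of the 10 genes, all but Aldh6a1, against 34.6% of all genes, with a median of 0.22 against -0.07. Leaving out any 1 library left 9 or 10 of the 10 genes above 0. With a score of adipocyte, liver or slow fibre markers as a covariate it was 9. With a score of mitochondrial content genes it was 8, with a median of 0.16. That last score left 7 of the 10 above 0 in combination against control (median 0.08) and 7 in combination against HIIT (median 0.10). The comparisons with the combination group share its 3 libraries and are not independent of each other. Nor are the directions of the 10 genes independent, since their values tended to vary together, as described below. In this and the other comparisons the shares and medians of all genes depend on the scale of the libraries. Genes of related dehydrogenases and of mitochondrial content leaned the same way, as given below.

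**Figure D2:**
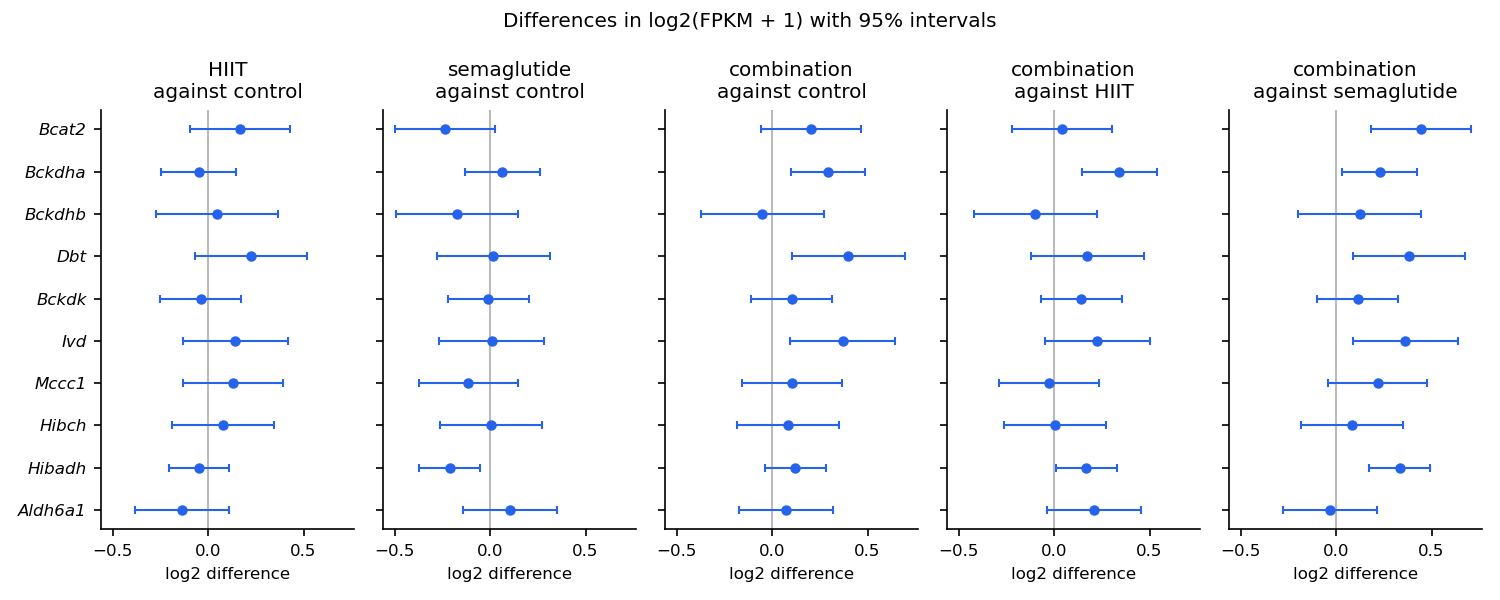
Differences in log2(FPKM + 1) of the 10 genes in 5 pairwise comparisons (points) with limma's 95% intervals (bars). In the comparison of combination with semaglutide the intervals of 5 genes, Bcat2, Bckdha, Dbt, Ivd and Hibadh, lie above 0, while in that of HIIT with control all 10 cross 0.

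The single interventions were set against each other in semaglutide against HIIT, where 490 genes passed (4.59%) and none of the 10. The count over all genes was 66 without semaglutide 1 and 689 without combination 1. Bcat2 was 17.98 against 24.2 FPKM, a log2 difference of -0.40 ± 0.12 (limma adjusted p = 0.0776), with all semaglutide libraries lower, as was also so for Hibadh and for 16.8% of all genes. Aldh6a1 was 54.6 ± 1.90 against 46.2 ± 3.82 FPKM, a difference of 0.24 ± 0.11 (limma adjusted p = 0.222), with all semaglutide libraries higher, as for 13.4% of all genes. Bcat2 passed with TMM (-0.38, limma adjusted p = 0.0483) and when combination libraries were left out of the shared estimate of spread (combination 1: limma adjusted p = 0.0463, combination 2: 0.0429, both 2 and 3: 0.0416). Its difference between the groups is the same in those fits. Bcat2 did not pass in the other 21 of 25 alternatives.

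Averaged over exercise, the 6 injected libraries were compared with the 6 others, and Bckdha was the 1 gene of the 10 that passed. Its mean was 56.2 FPKM in the control and HIIT groups and 65.0 FPKM in the semaglutide and combination groups, a log2 difference of 0.20 ± 0.06 (limma adjusted p = 0.0477). The gap was small without exercise, at 59.8 FPKM in semaglutide against 57.2 in control, where the libraries overlapped. It was larger with exercise, at 70.2 FPKM in the combination against 55.1 in HIIT. Of all genes 16.8% passed in this comparison and 4.69% passed in the higher direction, so 1 of 10 is near the background. The 1796 genes called became 874 without combination 2 and 2547 without combination 1. The injected and other libraries overlapped, since control 1 was at 63.8 FPKM and semaglutide 1 and 3 were at 57.7 and 58.1 FPKM. The call sits at the threshold. It held in 5 of 24 alternatives, with differences of 0.16 to 0.29 in all of them, and was lost in 19, with adjusted p up to 0.519 with a liver marker score as covariate. Leaving out any 1 of the libraries control 2 or 3, HIIT 1, 2 or 3, semaglutide 1, 2 or 3, or combination 2 or 3 ended it, at adjusted p of 0.0618 to 0.112.

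**Figure D3:**
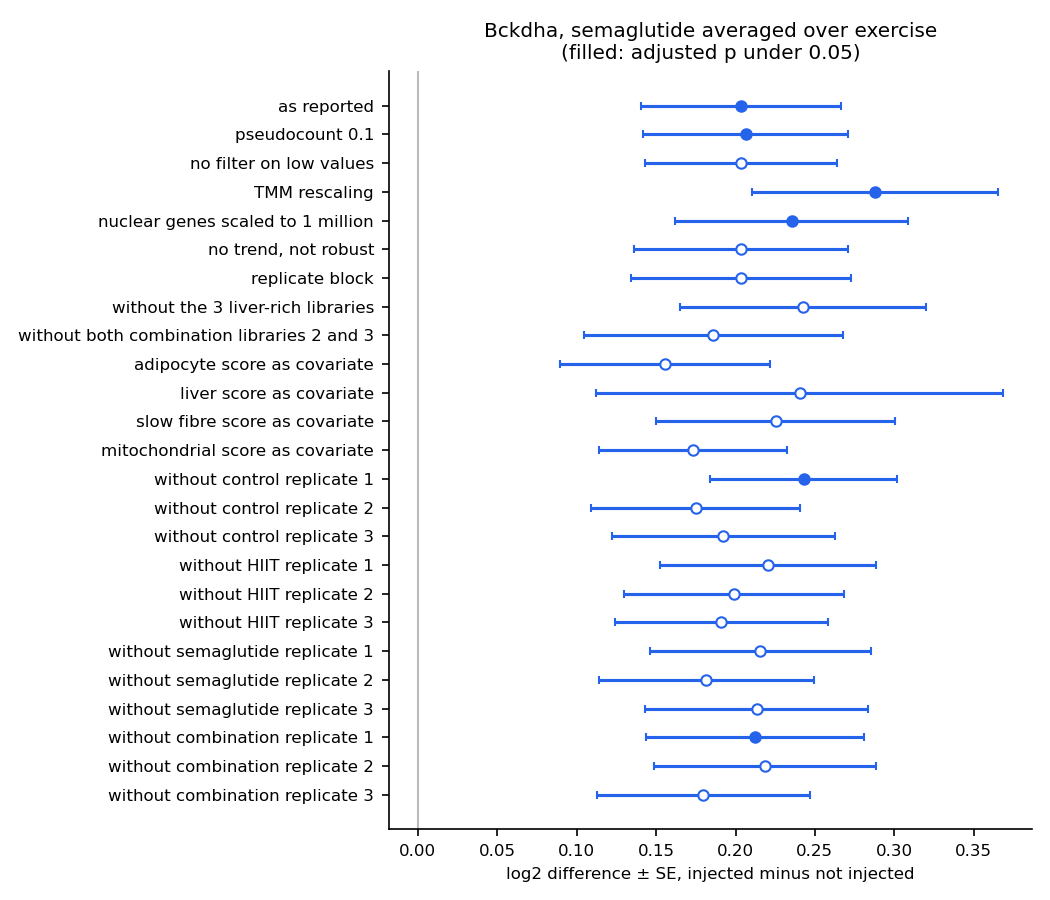
Log2 difference of Bckdha between injected and other animals, averaged over exercise (points, filled where the limma adjusted p is below 0.05), with its SE (bars), as reported and in the 24 alternatives. The difference stays between 0.16 and 0.29, and the filled points are the reported value and 5 alternatives.

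Averaged over semaglutide, HIIT gave no gene past the test among the 10 or among all genes (0%, with 1341 of all genes, 12.6%, at an unadjusted p below 0.05). Without combination 1 the count over all genes was 251. Of the 10 genes 4 had an unadjusted p below 0.05, all higher, against 2.61% of all genes in that direction. Bcat2 differed by 0.30 ± 0.08 (24.6 against 19.7 FPKM; limma adjusted p = 0.350), Dbt by 0.30 ± 0.10 and Ivd by 0.25 ± 0.09 on the log2 scale (limma adjusted p = 0.350 for both). Of the 10 genes 9 were above 0, all but Aldh6a1, against 34.7% of all genes, and the median was 0.12 against -0.05.

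The interaction term asks whether the response to semaglutide differs with exercise. None of the 10 genes and none of all genes passed (0%), and 822 of all genes had an unadjusted p below 0.05 (7.71%), as did 2 of the 10, Hibadh and Bckdha. Without combination 1 the count of all genes that passed was 24. Hibadh had a term of 0.38 ± 0.10 and Bckdha one of 0.28 ± 0.13 (limma adjusted p = 0.632 for both). The term was above 0 for all 10 genes, against 39.6% of all genes, but for 5 of the 10 once control 1, control 2 and HIIT 1, the libraries richest in liver transcripts, were left out. In the F test over the 4 groups none of the 10 passed, against 6.11% of all genes (652, and 115 without semaglutide 1 or 1674 without combination 1), and Hibadh came closest (limma adjusted p = 0.0668), followed by Bckdha (0.0929) and Bcat2 (0.0943). Bcat2 passed that test with TMM (limma adjusted p = 0.0325).

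Among 25 further genes of the pathway, 23 were tested, and 2 passed in some comparison, of which 1 is described. Slc43a2, a carrier of large neutral amino acids, was at 5.40, 5.998 and 4.58 FPKM in control, 3.83, 2.48 and 3.18 in HIIT, 5.05, 4.99 and 5.91 in semaglutide and 5.40, 5.25 and 6.64 in the combination. The HIIT libraries were the 3 lowest of the 12. It was higher in the combination than in HIIT by 0.71 ± 0.14 on the log2 scale (limma adjusted p = 0.0284), higher in semaglutide than in HIIT by 0.61 ± 0.14 (0.0332) and higher in injected animals on average by 0.35 ± 0.10 (0.0326). HIIT against control gave -0.61 ± 0.14 (limma adjusted p = 0.437), which did not pass. The first call held in 18 of 26 alternatives, the second in 15 of 25 and the third in 11 of 24. Leaving out HIIT 3 ended all of them (limma adjusted p = 0.0615, 0.0753 and 0.0514). The first was also lost without combination 2 or 3, and the second without HIIT 2 or any semaglutide library. The third was also lost without control 1 or 3, HIIT 2, any semaglutide library, or combination 2 or 3. With 1 library left out the limma adjusted p was up to 0.102. All 3 were lost with the liver score as a covariate (limma adjusted p = 0.0556, 0.0521 and 0.236) or the adipocyte score (0.0641, 0.0751 and 0.0590). Fits of the 2 groups alone lost the first (0.123) and the second (0.0580), and the second was also lost with no filter (0.0558). Of all genes 3.01%, 4.59% and 16.8% passed in the 3 comparisons.

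Ppm1k differed by -0.19 ± 0.08 between injected and other animals (1.72 against 2.095 FPKM; limma adjusted p = 0.117) and passed in none of 24 alternatives. Of all genes 4.02% lay wholly lower in injected libraries, as Ppm1k did. Klf15, a transcription factor known to drive this pathway in mouse muscle, had means of 18.8 ± 0.581 in control, 14.4 ± 2.38 in HIIT, 21.8 ± 1.13 in semaglutide and 21.5 ± 8.07 FPKM in the combination, and semaglutide against HIIT gave 0.57 ± 0.20 (limma adjusted p = 0.115). The transporter Slc7a5 lay under the filter.

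The pyruvate and 2-oxoglutarate dehydrogenases are built like BCKDH and share Dld with it. Of 13 genes for their subunits, kinases and phosphatases 11 were tested, and Pdk2, a kinase that switches pyruvate dehydrogenase off, was the 1 that passed. It rose in injected animals on average, from 192 to 222 FPKM, by 0.21 ± 0.06 on the log2 scale (limma adjusted p = 0.0368). Of all genes 16.8% passed in that comparison, 4.69% in the higher direction. The Pdk2 call held in 10 of 24 alternatives. It was lost without control 1 or 2, HIIT 3, any semaglutide library, or combination 2 or 3 (limma adjusted p up to 0.0918). It was also lost with the replicate block (0.0632) and with the adipocyte, slow fibre or liver score as a covariate (0.110, 0.120 and 0.373). In combination against control the median difference of these 11 genes was 0.20 and that of 10 mitochondrial content genes, such as Atp5f1a, was 0.16, both above the 0.11 of the 10 catabolism genes. In combination against semaglutide they were 0.17 and 0.14, below the 0.22 of the catabolism genes. There 10 of the 11 genes were above 0, 4 had an unadjusted p below 0.05 in the higher direction and 3 had all combination libraries higher. Of the mitochondrial content genes 8 were above 0 and 1 lay apart in that way, and of the 23 further pathway genes 15 were above 0. Averaged over semaglutide, HIIT gave 9 of the 11, 9 of the 10 and 7 of the 23 above 0. The interaction term was above 0 for 10, 7 and 17 of them.

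**Figure D4:**
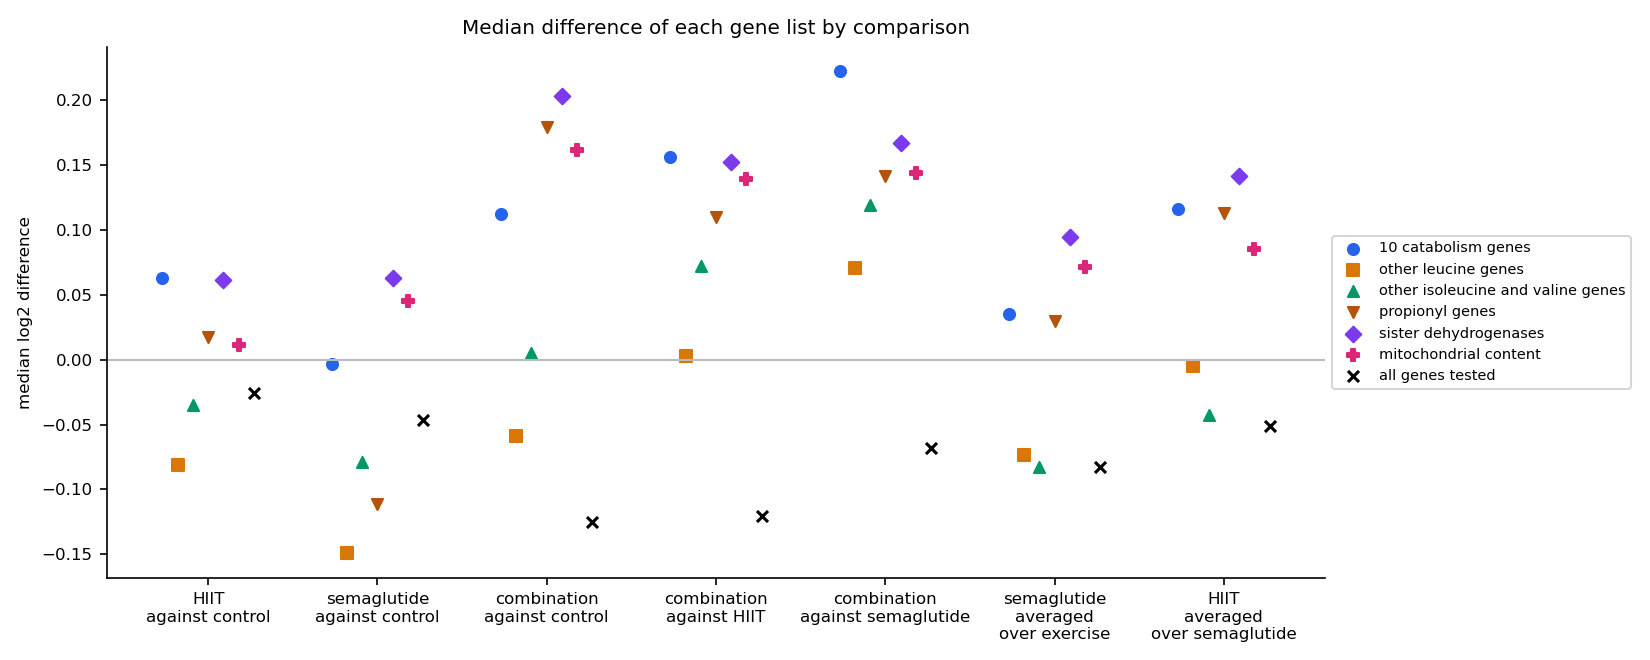
Median log2 difference of the 10 catabolism genes, of related gene lists and of all genes tested, in 7 comparisons. The catabolism genes (circles) are at 0.22 in combination against semaglutide and 0.11 in combination against control, where all genes (crosses) are at -0.07 and -0.13 and the sister dehydrogenases (diamonds) at 0.17 and 0.20.

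The balance of kinase to its target was read as a ratio of FPKM within each library. Bckdk to Bckdha was 0.572, 0.609 and 0.675 in control, 0.614, 0.612 and 0.639 in HIIT, 0.609, 0.576 and 0.574 in semaglutide and 0.488, 0.565 and 0.572 in the combination. The combination libraries were the 3 lowest of the 12, with combination 3 and control 1 at 0.572 to 3 digits. Bckdk to Ppm1k was 14.1, 15.1 and 18.9 in control, 19.2, 17.8 and 15.8 in HIIT, 21.1, 19.96 and 18.2 in semaglutide and 18.2, 27.5 and 24.2 in the combination, and the 2 highest libraries were combination 2 and 3. Bckdha to Bckdhb averaged 4.90 ± 0.817 in control, 4.53 ± 0.275 in HIIT, 5.84 ± 0.831 in semaglutide and 6.24 ± 0.861 in the combination. These ratios are descriptions of transcripts, were not tested, and say nothing of the phosphorylation of the complex.

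**Figure D5:**
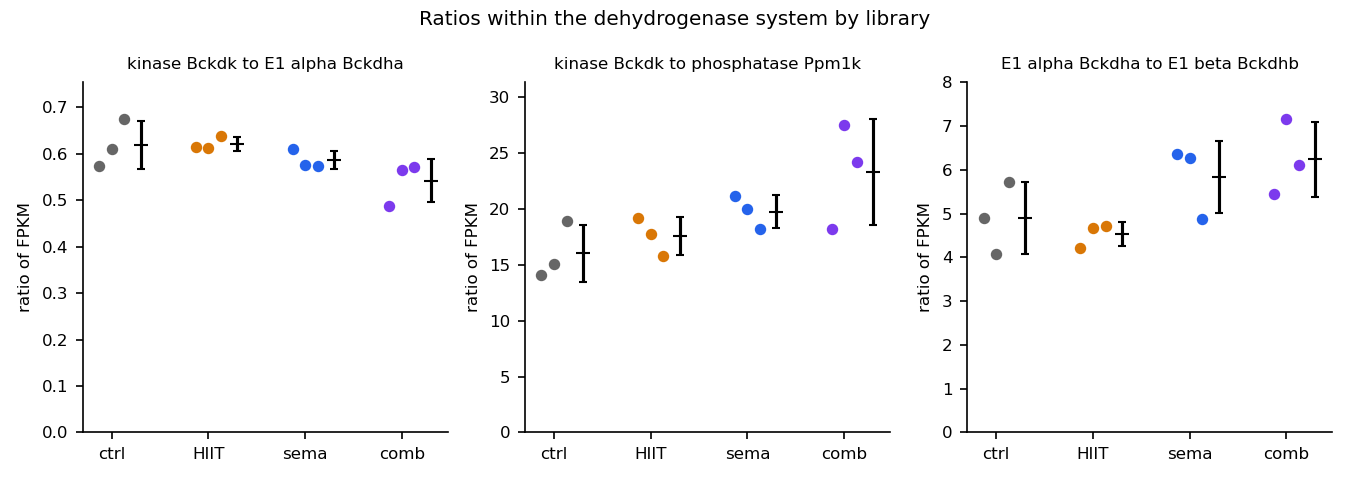
Ratios of FPKM within each library (points) for the kinase Bckdk to its target subunit Bckdha, for Bckdk to the phosphatase Ppm1k, and for the E1 subunits Bckdha to Bckdhb, with group mean and SD (bars, n = 3). The combination libraries are lowest for Bckdk to Bckdha (0.488 to 0.572) and 2 of them are highest for Bckdk to Ppm1k (27.5 and 24.2).

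The 10 genes tended to vary together over the 12 libraries. Of their 45 pairs 41 had a correlation above 0, with a median r of 0.34, a highest of 0.84 for Dbt and Ivd and a lowest of -0.22 for Bckdhb and Bckdk. With group means removed, 40 of the 45 were above 0 and the median was 0.36. These values are descriptions over libraries that share group, depth and scale. The genes most like the mean profile of the 10 over the 12 libraries were Dlst, the E2 subunit of the 2-oxoglutarate dehydrogenase (r = 0.88, rho = 0.85), Lgalsl (0.88, 0.72), Oxct1, which activates ketone bodies (0.85, 0.89), Ppif, the mitochondrial cyclophilin (0.82, 0.86), and Coq5, an enzyme of coenzyme Q synthesis (0.82, 0.85). Without the 2 libraries farthest from the median of the profile, r was 0.83, 0.82, 0.86, 0.79 and 0.89. Dlst and Oxct1 also belong to the pathway lists compared above.

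Transcripts of other cell types varied between libraries and, for some types, between groups, and are given here beside the results. No adipocyte, macrophage, slow fibre or fast fibre marker was called in any comparison. The 8 liver markers summed to 197 to 1333 FPKM in control, 20.3 to 388 in HIIT, 4.75 to 22.0 in semaglutide and 7.68 to 19.7 in the combination, led by Alb and Apoa2, and all 8 were called lower in injected animals on average. Ttr, Serpina1a and Apoc3 were at 0 in 1 or 2 injected libraries each. The 8 adipocyte markers, led by Fabp4 and Adipoq, summed to 233 to 879 FPKM in control, 592 to 940 in HIIT, 130 to 424 in semaglutide and 184 to 734 in the combination, with none at 0. The 8 slow fibre markers, led by Myl2 and Myl3, summed to 1067 to 2104, 261 to 906, 397 to 1302 and 205 to 1068 FPKM in the same order, and the 8 fast fibre markers, led by Tnnt3 and Mylpf, to 48283 to 63298 FPKM over all libraries. The mitochondrial content genes, led by Atp5f1a and Cox4i1, summed to 3998 to 5164 FPKM, with combination 3 and control 1 highest. Those libraries also led the members' profile within their groups, and HIIT 3 led both in its group. The match was not general. Semaglutide 2 had the highest sum of its group (4709 FPKM), but semaglutide 3 led the profile. Combination 1 had the lowest sum of its group (4414 FPKM) and a profile above that of combination 2. Without control 1, control 2 and HIIT 1, Bckdha averaged over exercise gave 0.24, with control 3 as the only control library left. With a score of adipocyte, liver, slow fibre or mitochondrial genes as a covariate it gave 0.16, 0.24, 0.23 and 0.17 (limma adjusted p = 0.163, 0.519, 0.117 and 0.0762). In bulk tissue fewer cells of a type and less RNA per cell cannot be told apart. Markers of macrophages (Lyz2, C1qa), fibroblasts (Dcn, Col3a1) and endothelium (Pecam1, Cdh5) summed to 16.4 to 138, 161 to 420 and 43.6 to 69.6 FPKM. In injected animals on average, 4 of the 6 fibroblast and 4 of the 6 endothelial markers were called lower and none of the 6 macrophage markers was called. The fibroblast sums were 176 to 275 FPKM in control, 202 to 420 in HIIT, 170 to 183 in semaglutide and 161 to 244 in the combination. The endothelial sums were 62.2 to 68.3, 43.6 to 69.6, 44.2 to 48.9 and 44.8 to 50.0 FPKM in the same order. Fibroblast, endothelial and macrophage scores were not fitted as covariates, so their part in the Bckdha call was not tested.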

How the data were processed

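Libraries were strand-specific, from poly(A) RNA, and read from both ends, per the labels' protocols. The authors deposited 1 table of FPKM for the 12 libraries. The submitters' processing notes name build GRCm39, StringTie 2.1.4, featureCounts 2.0.1, STAR 2.7.9a, Trimmomatic 0.36, FastQC and CASAVA. Neither the annotation, the strand setting nor the tool behind the FPKM is given in the sources used here. No column of other samples was present. FPKM summed to 533412 to 586817 per library, of which 31.3 to 42.0% was mitochondrially encoded. Depth is not stated. Steps between low FPKM values (53 to 71 values per library, lengths from GENCODE M21) correspond to 17.2 to 21.3 M fragments, which puts roughly 260 to 8782 fragments behind each value of the 10 genes.

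Values were taken as log2(FPKM + 1), on which changes at low FPKM come out too small. The filter of at least 1 FPKM in at least 3 libraries kept 10666 genes. R 4.3.3 and limma 3.58.1 fitted a single model with a mean per group over all 12 libraries, with trended and robust empirical Bayes. Each two-sided p was adjusted by Benjamini-Hochberg over the genes kept, and a call is an adjusted p under 0.05. The procedure was tested on simulated data. No label says which animal gave which library, so the p-values reflect spread between samples that may be technical. Same-numbered libraries of different groups correlated at -0.23 to 0.29 over 18 pairs (deviations from group means). For 2 of 12 libraries the best match carried the same number, and the numbers do not pair the 4 groups. Between HIIT and the combination all 3 pairs exceeded 0.1 (0.29, 0.27 and 0.22), and that comparison was also fitted with these pairs as a block.

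Alternatives were another pseudocount (0.1), no filter, TMM factors, nuclear genes scaled to a common total, a plain empirical Bayes step, a replicate block, libraries left out, marker scores as covariates and fits of 2 groups. Named genes are the 10, Dld, Ppm1k, Mccc2 and Klf15, every pathway, regulator or sister dehydrogenase gene called in a comparison, the 2 most abundant of each marker list and the 5 most like the mean profile. A called pathway gene is not reported here. The 10 genes and all lists were chosen with earlier results of these data known. By name in RefSeq, pseudogenes lie inside Dbt and Hibch and noncoding genes overlap Bcat2, Bckdhb, Mccc1 and Hibadh, so their values may hold reads of those.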

Additional observations from a re-analysis of the deposited data

Results flagged for a closer look

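Hibadh, the hydroxyisobutyrate dehydrogenase of the valine branch, had semaglutide differences of opposite direction in the 2 exercise states. Every semaglutide library was below every control library (53.5 to 58.5 against 64.0 to 68.1 FPKM), and every combination library was above every HIIT library (68.2 to 74.1 against 60.9 to 65.7 FPKM). Of all genes 18.1% lay apart in the first way and 7.49% in the second, and how many did both was not counted. Hibadh was flagged by this same separation. The interaction term was 0.38 ± 0.10 on the log2 scale and did not pass the adjustment (limma adjusted p = 0.632). It stayed between 0.33 and 0.44 in 24 alternatives and passed in none of them, with adjusted p from 0.177 without combination 1 upward.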

How the results depend on the processing

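The differences and F values of the 10 genes were computed under 26 alternatives, 2470 values in all, of which 2442 kept their side of the threshold, 19 lost a call, 9 gained one and 0 reversed a call. The sign changed in 134 values that were called in neither setting. For semaglutide averaged over exercise the count of called genes was 1, and it was 0 with no filter, with no trend or robust step, and with adipocyte, liver, slow fibre or mitochondrial scores as covariates (the last chosen after seeing the data). Without the 3 liver-rich libraries or without combination 2 and 3 a group kept 1 library, and Bckdha differed by 0.24 and 0.19. Leaving out 1 library gave a count of 0 to 1. With the replicate block it was also 0 (Bckdha 0.20, limma adjusted p = 0.0727), the 1 call of the 10 genes that the block changed, and no call changed with the block within HIIT and combination, which was added after seeing the data and under which 791 of all genes passed in place of 321. In combination against control the count was 0, and 1 with TMM and with the adipocyte score. In combination against HIIT it was 0, 1 with TMM and 0 to 1 with 1 library left out. In semaglutide against HIIT it was 0, 1 with TMM, 1 without combination 2 and 3, and 0 to 1 with 1 library left out. In the F test it was 0, and 1 with TMM. The cause of these changes was not tested. The count over all genes moved by over 1.5 times with many single libraries. For combination against control it was 668, 1643 without combination 1, 4 without combination 2, 23 without combination 3, 30 without control 1, 40 without control 2, and 424, 399 and 398 without semaglutide 1, 2 and 3. For combination against HIIT it was 321, 1574 without combination 1, 18 and 40 without combination 2 and 3, 69 and 67 without HIIT 1 and 3, 205 without control 1, and 206 and 196 without semaglutide 2 and 3. For semaglutide against control it was 397, 112 and 127 without combination 2 and 3, 33 and 56 without control 1 and 2, and 33, 59 and 55 without semaglutide 1, 2 and 3. For semaglutide against HIIT it was 490, 234 and 173 without HIIT 1 and 3, and 66, 148 and 183 without semaglutide 1, 2 and 3. For semaglutide averaged over exercise it was 1796, 1153 without HIIT 1, 874 and 1076 without combination 2 and 3, 1110 and 1048 without control 1 and 2, and 987 and 1023 without semaglutide 1 and 2. For the F test it was 652, 1674 without combination 1, 126 and 129 without combination 2 and 3, 132 and 189 without control 1 and 2, 408 and 371 without HIIT 2 and 3, and 115, 140 and 143 without semaglutide 1, 2 and 3. For combination against semaglutide it was 1, and 557 without combination 1.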
